A study of Homo sapiens with 4 samples.

Results

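The BCL2 family decides whether mitochondria release the proteins that start apoptosis, and 10 of its genes were followed here in poly(A) RNA of HEK293T cells. They were taken by gene symbol, by a rule that uses no measured value though it was set with earlier results of these data known, and comprise the anti-apoptotic members MCL1, BCL2 and BCL2L1, the effectors BAX and BAK1, and the BH3-only members BBC3, PMAIP1, BID, BAD and BCL2L11. All 10 were found among the 62700 gene identifiers of the count tables, and all 10 passed the filter on low counts that left 18139 genes for testing. Cells had received a transient transfection of RPB1, the RNA polymerase II subunit that carries the C-terminal domain (CTD) of heptad repeats. WT constructs had an unchanged CTD, and in T4A constructs alanine replaced threonine at position 4 of every repeat. Both constructs carried resistance to α-amanitin, which eliminates the endogenous RPB1, and 1 day after transfection both groups received the toxin at 2.5 µg/ml for 48 hours. Each group had 2 libraries, with 23465029 and 19257217 counts for T4A and 33063535 and 24695291 counts for WT. HEK293T is an embryonic kidney line that carries adenoviral transforming genes and the simian virus large T antigen. Expression was transient, so each culture may mix cells with different amounts of construct, and cells dying under the toxin were not separated from the others. In such bulk samples, fewer cells with a transcript and less of it per cell cannot be told apart.

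BAX and BAK1 form the pores of the outer mitochondrial membrane through which cytochrome c escapes. MCL1, BCL2 and BCL2L1 (the gene of BCL-xL) hold them in check, and the BH3-only proteins either bind and neutralise these guardians or activate the effectors directly. MCL1 protein and mRNA both turn over fast, and MCL1 is well known for its sensitivity to transcription inhibitors. Only transcripts were measured here. MCL1, BCL2L1 and BCL2L11 have splice forms that differ in their action on cell survival, and the counts combine all forms of a gene.

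Part of the difference in mRNA turnover between members is written in their 3′ untranslated regions (3′UTRs), where the pentamer ATTTA (written as DNA) is the core of AU-rich elements that recruit decay factors. The stretch of 30 bases with the most pentamers is shown for the anti-apoptotic genes MCL1 and BCL2 and for the BH3-only genes PMAIP1 and BCL2L11, with the pentamers in capitals, read 5′ to 3′ from the sense strand of the canonical GENCODE transcript.
MCL1: catttgacctaATTTAactggtgaaATTTA
BCL2: attattaagaaaaaaagATTTATTTATTTA
PMAIP1: aggaataattttATTTAttttgcctATTTA
BCL2L11: aatattgtatATTTAttttctgcttATTTA
In BCL2 the pentamers overlap and share their outer bases. The pentamer occurred 13 times in the 3′UTR of BCL2 (5279 bases), 10 times in MCL1 (2817 bases), 8 times in BCL2L11 (4213 bases) and 5 times in PMAIP1 (1552 bases). BCL2L1 held 3 in 1491 bases and BID 2 in 1442 bases. The other 4 members, BAX (162 bases), BAK1 (1251 bases), BBC3 (978 bases) and BAD (379 bases), held none. Over the 13534 tested protein-coding genes with an annotated 3′UTR, 72.4% held the pentamer and the median count was 2 in a median length of 1332 bases. The longer nonamer TTATTTATT was in BCL2 and PMAIP1 once each and in 9.47% of all these genes. These matches describe letters of the transcripts and not binding.

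Between T4A and WT cells, 3 members rose, 2 fell and 5 did not pass the test (edgeR quasi-likelihood test on counts, called at a Benjamini-Hochberg adjusted p under 0.05 over all tested genes). The members that rose were the effector BAX and the BH3-only genes BID and BAD. Those that fell were the anti-apoptotic MCL1 and the BH3-only BCL2L11. Across all tested genes 10.7% were called higher and 13% lower in T4A, so with 10 members the counts of 3 and 2 are set beside shares of that size. The members' median log2 fold change was 0.23, in a range from −0.56 to 0.69, and that of all tested genes −0.01. The members' median lies between the values of BBC3 and BAK1, neither of which was called. Both T4A libraries lay above both WT libraries for 4 members (BAX, BID, BAD and BBC3), beside 28.5% of all tested genes, and below both for 2 members (MCL1 and BCL2L11), beside 30.5% of all tested genes. Since 2 libraries against 2 cannot give an exact permutation p under 0.333, the tests borrow their estimate of the spread from all genes. The study calls the duplicates biological, but the labels do not state separate cultures, and the p-values reflect only how these libraries vary, part of which may be technical. With library totals in place of TMM scaling, 31.2% of all calls were rises, against 45.1% with TMM, 61.0% with upper quartile scaling and 58.6% with a correction for gene length. BAX, BID and BAD remained called higher and BCL2L11 called lower under each of these settings.

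**Figure D1:**
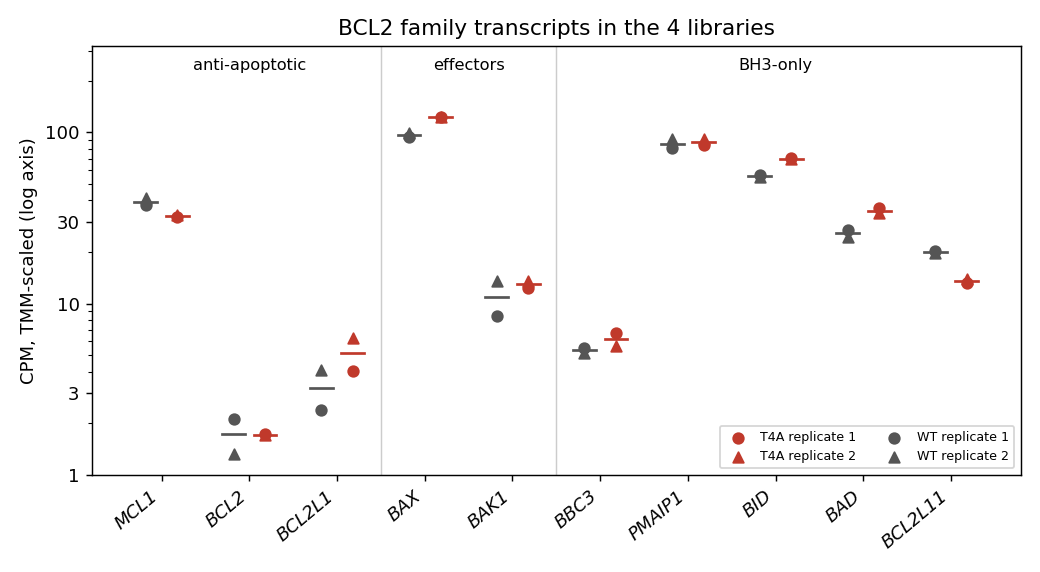
Level of the 10 BCL2 family genes in each library, as CPM (log axis), where red points are T4A libraries, grey points WT libraries and each line the mean of 2 libraries. The red and grey points are apart for MCL1, BAX, BBC3, BID, BAD and BCL2L11, and overlap or touch for the other 4 genes.

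MCL1, the anti-apoptotic member whose AU-rich window is printed above, lies on chromosome 1 (150574558 to 150579610, minus strand, RefSeq on GRCh38.p14; ENSG00000143384.14). It stood at 32.2 and 32.8 CPM (counts relative to the TMM-scaled library size) in the T4A libraries and at 37.4 and 41.4 CPM in the WT libraries. Both T4A values lay below both WT values. The mean fell from 39.4 ± 2.82 to 32.5 ± 0.418 CPM (SD, n = 2), a log2 fold change of −0.28 ± 0.09 (SE, edgeR adjusted p = 0.0324), or 1.21-fold lower. The call was lost with upper quartile scaling (adjusted p = 0.141), in DESeq2 (adjusted p = 0.0842) and with the length correction (adjusted p = 0.232), as well as without T4A replicate 1 or without WT replicate 2, where the log2 fold change was −0.26 and −0.20.

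BCL2 (chromosome 18, 63123346 to 63320090, minus strand) was the least abundant member, with 39 and 32 counts in the T4A libraries and 71 and 34 counts in the WT libraries. Its levels were 1.72 and 1.70 CPM in T4A and 2.12 and 1.33 CPM in WT, so both T4A values lay between the WT values. The log2 fold change was −0.02 ± 0.41 (adjusted p = 0.983), and at this depth a change of the size seen for the called members could not have been detected. Leaving out WT replicate 1 gave 0.37 and leaving out WT replicate 2 gave −0.31. BCL2L1 (chromosome 20, 31664452 to 31723963, minus strand), which encodes BCL-xL, stood at 4.05 and 6.27 CPM in T4A and at 2.39 and 4.06 CPM in WT. The lower T4A library and the higher WT library were nearly level, and the log2 fold change of 0.69 ± 0.30 did not pass (adjusted p = 0.106). It was 0.98 without T4A replicate 1 and 1.11 without WT replicate 2, and passed in both cases (adjusted p = 0.0049 and 0.0225), whereas it was 0.35 without either of the other libraries. The antisense gene ABALON covers 1735 of the 4197 exonic bases of BCL2L1 (41.3%) and was listed at 0 in all 4 libraries. Counting did not use strand, so reads of the pair cannot be told apart.

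BAX was the member with the smallest p. It encodes the effector that moves from the cytosol to mitochondria, and its gene lies on chromosome 19 (48954875 to 48961798, plus strand; ENSG00000087088.21). The T4A libraries held 123.2 and 123.4 CPM and the WT libraries 93.9 and 98.7 CPM. Both T4A values lay above both WT values. The SD was 0.201 CPM in T4A and 3.41 CPM in WT, and an SD of 2 libraries is a poor measure of spread. The mean rose from 96.3 to 123.3 CPM, a log2 fold change of 0.36 ± 0.06 (edgeR adjusted p = 0.00011), or 1.28-fold higher. The 300 bases around the RefSeq start of BAX (250 before it and 50 after it, chr19:48954625-48954924, plus strand, GRCh38.p14) are printed with the E-box CACGTG, an element bound by MYC and related factors, and the GC box GGGCGG, an element of the SP family, in capitals, the latter on either strand.
BAX: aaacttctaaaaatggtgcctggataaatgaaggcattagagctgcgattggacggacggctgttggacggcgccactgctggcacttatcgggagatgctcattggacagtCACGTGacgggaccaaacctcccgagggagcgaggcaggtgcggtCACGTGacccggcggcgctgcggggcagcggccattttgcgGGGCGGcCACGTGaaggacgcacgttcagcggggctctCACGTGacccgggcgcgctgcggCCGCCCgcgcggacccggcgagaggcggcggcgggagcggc
This window held 4 E-boxes, 2 GC boxes and 2 CCAAT boxes. An E-box was in 9.83% of the 11993 windows of tested genes, and among the 9 members with a window only BAX and BBC3 had one, BBC3 with a single copy. MYC, the factor named here, was at 4.67 and 3.61 CPM in T4A and 2.68 and 3.05 CPM in WT (log2 fold change 0.54 ± 0.28, adjusted p = 0.187), which did not pass.

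BAK1, the effector that resides at mitochondria (chromosome 6, 33572552 to 33580276, minus strand), stood at 12.3 and 13.6 CPM in T4A and at 8.47 and 13.5 CPM in WT. One WT library was low and the other was level with T4A. The log2 fold change was 0.24 ± 0.18 (adjusted p = 0.391). Leaving out WT replicate 1 gave −0.05 and leaving out WT replicate 2 gave 0.61 (adjusted p = 0.0451), so the value depended on the WT library used. Its window held 2 GC boxes and 2 CCAAT boxes.

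**Figure D2:**
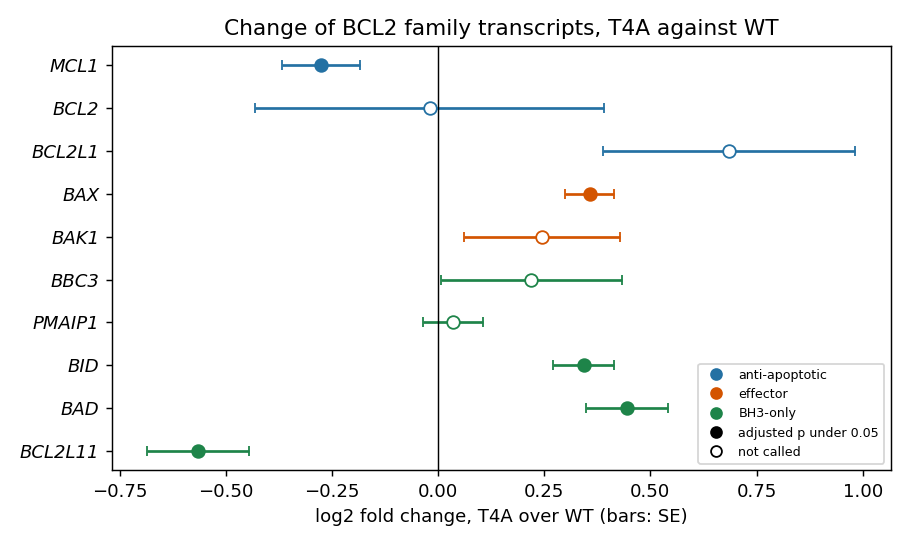
Log2 fold change of T4A over WT (x axis) for each member (rows, ordered by role), with bars for the SE of the edgeR fit and filled points for an adjusted p under 0.05. The filled points are MCL1 and BCL2L11 to the left of 0 and BAX, BID and BAD to its right.

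Among the BH3-only genes, BID and BAD rose and BCL2L11 fell, while BBC3 and PMAIP1 did not pass. BID, which links death receptors to mitochondria once caspase-8 has cut it, lies on chromosome 22 (17734138 to 17774665, minus strand; ENSG00000015475.19). It stood at 70.5 and 69.8 CPM in T4A and at 56.1 and 54.5 CPM in WT. The groups were apart, and the log2 fold change was 0.34 ± 0.07 (edgeR adjusted p = 0.00142), or 1.27-fold higher.

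BAD, which binds BCL2 and BCL-xL unless it is phosphorylated by survival kinases, lies on chromosome 11 (64269828 to 64284704, minus strand; ENSG00000002330.14). It stood at 36.3 and 33.6 CPM in T4A and at 27.0 and 24.3 CPM in WT. It was the called member with the steepest rise, at a log2 fold change of 0.45 ± 0.10 (edgeR adjusted p = 0.00196), or 1.36-fold. GPR137 on the opposite strand covers 404 of the 1708 exonic bases of BAD (23.7%). GPR137 was itself higher in T4A, at 43.9 and 44.5 CPM against 32.4 and 34.3 CPM (log2 fold change 0.41 ± 0.09, adjusted p = 0.00151), and its part in the count of BAD was not tested.

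BCL2L11, the gene of BIM, encodes a BH3-only protein that binds every anti-apoptotic member and activates BAX and BAK1 (chromosome 2, 111120914 to 111168445, plus strand; ENSG00000153094.25). It stood at 13.2 and 14.0 CPM in T4A and at 20.3 and 19.8 CPM in WT, with the groups far apart. The fall of 0.56 ± 0.12 on the log2 scale (edgeR adjusted p = 0.00154), or 1.48-fold, was the largest change among the called members, and the only one that also passed a test against a fold of 1.2 (adjusted p = 0.0329). It was called under all 14 alternatives, with log2 fold changes from −0.64 to −0.43. The antisense gene MIR4435-2HG shares 727 of its 6742 exonic bases (10.8%) and had between 19 and 34 counts in any library.

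The windows of these 3 genes are shown to set members that rose beside the one that fell, in the same format (BID at chr22:17774420-17774719, minus strand, BAD at chr11:64284655-64284954, minus strand, and BCL2L11 at chr2:111120664-111120963, plus strand). RefSeq lists 5 starts for BID and 2 for BAD, and the first was used.
BID: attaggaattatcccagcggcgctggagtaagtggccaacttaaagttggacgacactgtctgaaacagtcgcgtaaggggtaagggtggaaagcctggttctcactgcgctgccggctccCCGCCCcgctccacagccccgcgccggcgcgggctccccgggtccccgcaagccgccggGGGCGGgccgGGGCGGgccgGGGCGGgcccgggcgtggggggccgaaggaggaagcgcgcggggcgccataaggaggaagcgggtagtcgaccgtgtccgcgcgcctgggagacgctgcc
BAD: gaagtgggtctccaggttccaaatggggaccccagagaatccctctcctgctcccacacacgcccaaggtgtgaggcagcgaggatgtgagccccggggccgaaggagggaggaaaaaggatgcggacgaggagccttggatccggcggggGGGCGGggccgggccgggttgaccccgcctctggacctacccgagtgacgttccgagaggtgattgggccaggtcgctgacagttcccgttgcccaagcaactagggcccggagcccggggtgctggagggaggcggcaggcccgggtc
BCL2L11: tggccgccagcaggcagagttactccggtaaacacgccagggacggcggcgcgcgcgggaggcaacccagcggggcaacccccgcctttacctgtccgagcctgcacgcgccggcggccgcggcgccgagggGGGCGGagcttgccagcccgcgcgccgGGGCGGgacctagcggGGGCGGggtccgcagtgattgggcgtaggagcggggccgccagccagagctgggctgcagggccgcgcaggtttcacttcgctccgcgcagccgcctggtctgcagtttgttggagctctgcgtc
The GC box was present 4 times in BID, 3 times in BCL2L11 and once in BAD, on either side of the division between rising and falling genes. It was in 6 of the 9 members and in 69.3% of all windows. A CCAAT box was in 5 of 9 members (36.1% of all windows), and the TATA box TATAAA only in BCL2L1 (5.81% of all windows). Neither the cyclic AMP response element TGACGTCA (3.19% of all windows) nor the amino acid response element core TGATGNAA (1.68%), both sites for ATF-family factors, was found in any of the 9 windows. GC content of the members' windows ran from 48% in BBC3 to 74.7% in BCL2L11, against a median of 65.3% over all windows.

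BBC3, the gene of PUMA (chromosome 19, 47220824 to 47232860, minus strand), stood at 6.74 and 5.64 CPM in T4A and at 5.49 and 5.15 CPM in WT. Both T4A values were the higher ones, but the margin was small against their SD of 0.782 CPM, and the log2 fold change of 0.22 ± 0.21 did not pass (adjusted p = 0.53). Leaving out T4A replicate 1 gave 0.081 and leaving out T4A replicate 2 gave 0.34. PMAIP1, the gene of NOXA, which binds MCL1 and hastens its breakdown (chromosome 18, 59899996 to 59904305, plus strand), stood at 84.8 and 91.1 CPM in T4A and at 80.7 and 91.0 CPM in WT. The groups overlapped almost fully. Its log2 fold change was 0.03 ± 0.07 (adjusted p = 0.795) and turned negative with library totals (−0.04) and with the length correction (−0.10). PMAIP1 was abundant, with 1714 counts in its shallowest library, and its SE was of the same size as those of BID and BAX.

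**Figure D3:**
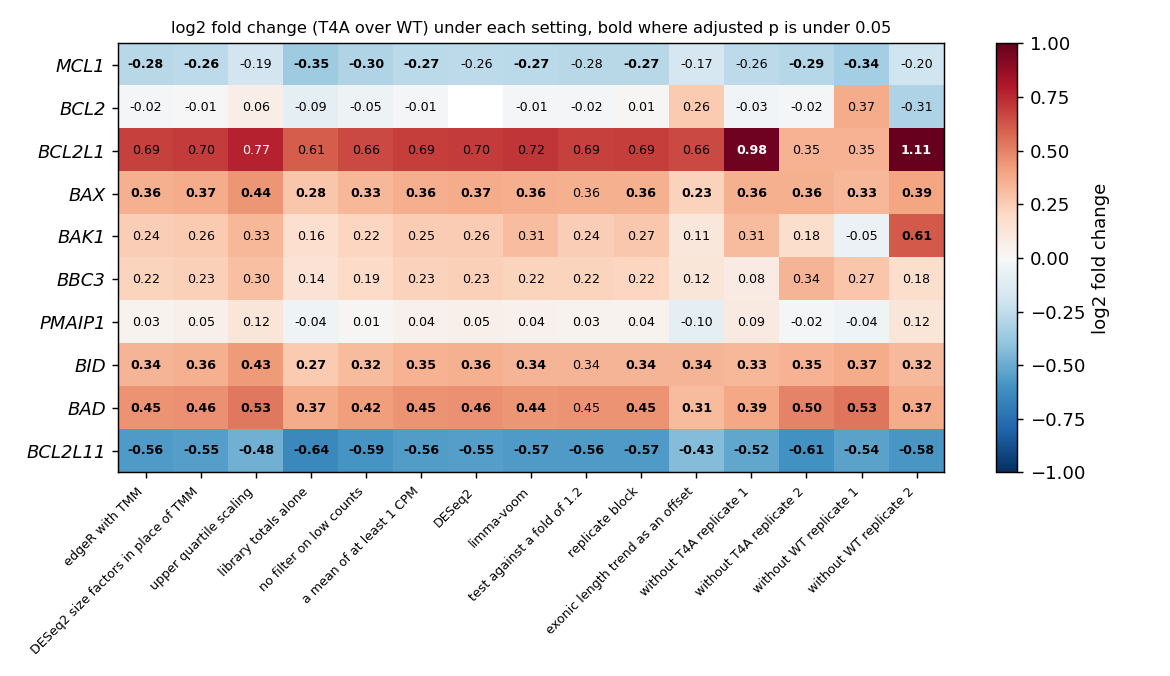
Log2 fold change of T4A over WT for each member (rows) under the main edgeR fit (first column) and 14 other settings, with the color showing its sign and size and bold figures an adjusted p under 0.05. BCL2L11 is bold in every column and BAX, BID and BAD in all but the test against a fold of 1.2, while the sign of BCL2, BAK1 and PMAIP1 varies. The blank cell is BCL2 in DESeq2, which gave no adjusted p.

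Levels of different genes were compared as CPM per kilobase of exon. In WT cells PMAIP1 (39.3 ± 3.33) and BAX (37.2 ± 1.32) were the highest and overlapped in their libraries. They were followed by BAD (15.0 ± 1.10), BID (12.5 ± 0.252), MCL1 (6.33 ± 0.454), BAK1 (4.97 ± 1.61), BCL2L11 (2.98 ± 0.0567), BBC3 (1.67 ± 0.0738), BCL2L1 (0.768 ± 0.282) and BCL2 (0.137 ± 0.0443). Of these neighbours, MCL1 and BAK1 also overlapped. In T4A cells BAX (47.7 ± 0.0779) lay above PMAIP1 (40.2 ± 2.05) in both libraries, and BAK1 (5.85 ± 0.390) above MCL1 (5.22 ± 0.0671), while BCL2L11 (2.01 ± 0.0846) and BBC3 (1.94 ± 0.246) overlapped. When the length of the longest transcript was used instead, MCL1 (7.14 ± 0.0918) was above BAK1 in T4A cells too, so that part of the order depended on the length chosen. By that length BAX (70.9 ± 2.51) lay above PMAIP1 (45.2 ± 3.84) in both WT libraries as well, and BAD (22.2 ± 1.63) and BID (22.2 ± 0.446) overlapped in WT cells, so the order of these genes, too, depended on the length. MCL1 was the main anti-apoptotic transcript in both groups by either length.

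Summed by role on the same scale per kilobase, the 3 anti-apoptotic members came to 6.28 and 6.90 in T4A and 6.75 and 7.72 in WT, with overlapping groups. These sums leave out family genes outside the members, among them the anti-apoptotic BCL2L2. BCL2L2 has 4840 exonic bases and stood at 13.4 and 16.6 CPM in T4A and 18.1 and 19.9 CPM in WT. The anti-apoptotic sum, its overlap and the ratios below thus hold for the members alone. The effectors came to 53.2 and 53.8 against 40.1 and 44.3, and the BH3-only genes to 80.1 and 81.0 against 70.2 and 72.8, both with every T4A library above every WT library. The ratio of effector to anti-apoptotic transcripts was 8.14 ± 0.472 in T4A and 5.84 ± 0.154 in WT, and that of BH3-only to anti-apoptotic transcripts was 12.2 ± 0.719 and 9.91 ± 0.692. BAX alone stood at 9.12 ± 0.102 times MCL1 in T4A and at 5.89 ± 0.214 times in WT. The T4A means of the sums were 53.5 for effectors, with BAX at 47.7, and 6.59 for anti-apoptotic genes, with MCL1 at 5.22. For BH3-only genes the T4A mean was 80.5, with PMAIP1 at 40.2. BAX and MCL1 thus made up most of the first ratio, and the 3 ratios are not independent. With the longest transcript as length, the ratio of BAX to MCL1 was 12.7 and 8.21, and that of effectors to anti-apoptotic genes 10.8 and 7.70. The size of these ratios thus depends on the length used. These ratios are descriptions of 2 libraries a group and were not tested.

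**Figure D4:**
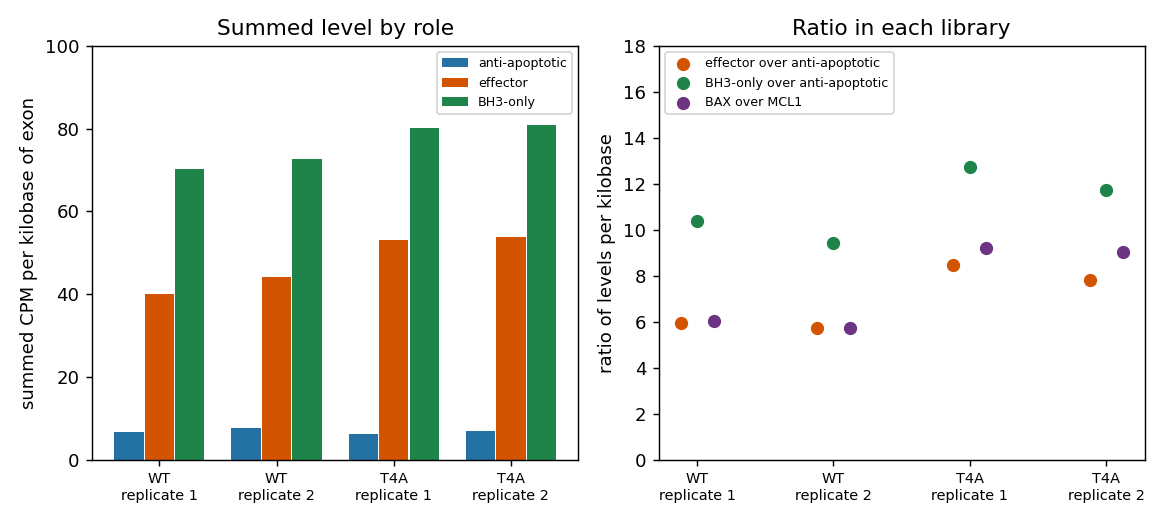
Left, summed level of the anti-apoptotic, effector and BH3-only members in each library, in CPM per kilobase of exon (bars, 1 library each). Right, ratio of these sums and of BAX to MCL1 in each library (points), where both T4A libraries lie above both WT libraries for all 3 ratios, for example 9.20 and 9.05 against 6.04 and 5.74 for BAX over MCL1. The 3 ratios have MCL1 as the denominator or its largest part and are not independent.

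The members differ in exonic length, and over all genes with an annotated length the log2 fold change fell as length rose. In 5 equal groups from short to long the median log2 fold change was 0.24, 0.14, 0.01, −0.12 and −0.26. BAD (1708 bases) was in the shortest group, where 13.8% of genes were called higher and 1.72% lower. BAX (2587 bases), BAK1, BBC3 and PMAIP1 were in the second, with 16.6% higher and 2.19% lower. BID (4420 bases) and BCL2L1 were in the third. MCL1 (6222 bases) and BCL2L11 (6742 bases) were in the fourth, where 7.04% were called higher and 19.1% lower, and BCL2 was in the fifth. With the trend of each library on length taken into the fit, the log2 fold change was 0.23 for BAX, 0.34 for BID, 0.31 for BAD and −0.43 for BCL2L11, all still called, and −0.17 for MCL1, no longer called. Members without the AU-rich pentamer have exonic lengths up to 3185 bases and those with it at least 2186 bases, and the part of either feature in the changes was not tested.

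**Figure D5:**
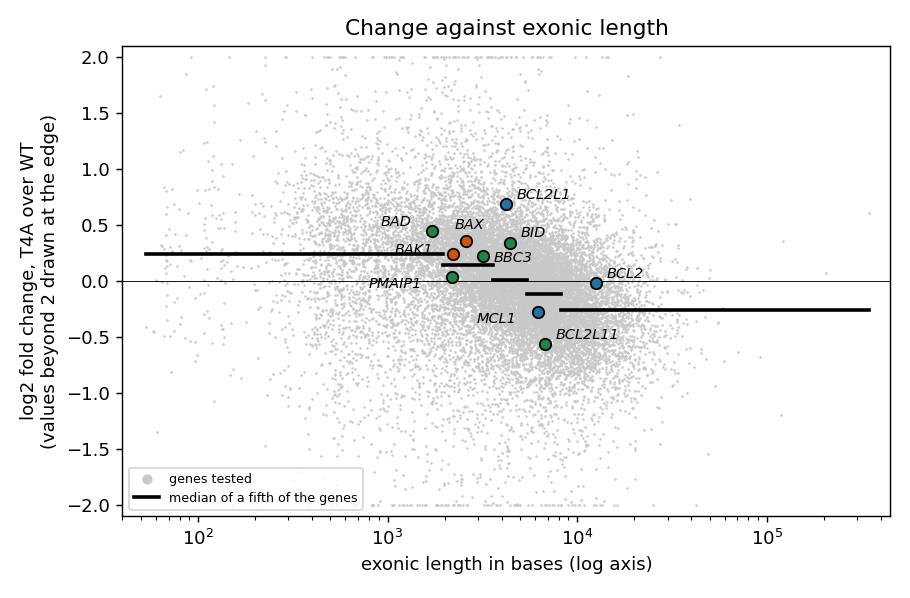
Log2 fold change of T4A over WT (y axis, values beyond 2 drawn at the edge) against exonic length in bases (log axis) for all tested genes with a known length (grey) and the members (blue anti-apoptotic, orange effector, green BH3-only), with black lines for the median of each of 5 equal groups by length. The medians fall from 0.24 to −0.26, and BCL2L11 lies below and BID above the median of its group.

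Over all tested genes edgeR called 10.7% higher and 13% lower. Of 13 further BCL2 family genes, 10 passed the filter. Among these, 1 was called higher and none lower in edgeR, DESeq2 or limma-voom (2 lower at an unadjusted p under 0.05, BCL2L2 and BMF). In edgeR 1 was called lower with library totals, with no filter or with the replicate block, and 2 without T4A replicate 2. The gene called higher was BCL2L12, a distant relative, at 60.9 and 62.3 CPM in T4A against 46.6 and 46.2 CPM in WT (log2 fold change 0.41 ± 0.08, adjusted p = 0.000477). IRF3 on the opposite strand covers 25.9% of its exonic bases. The anti-apoptotic BCL2L2 (the gene of BCL-w) stood at 13.4 and 16.6 CPM against 18.1 and 19.9 CPM (log2 fold change −0.34 ± 0.13, adjusted p = 0.0637). Other annotated genes share 24.8% of its exonic bases. BMF, a BH3-only gene, had a log2 fold change of −0.95 ± 0.38 (adjusted p = 0.0816) at 1.15 and 1.81 against 2.36 and 3.32 CPM. Log2 fold changes were 0.98 ± 0.78 for BOK, 0.14 ± 0.35 for BIK, −0.08 ± 0.23 for HRK and −0.11 ± 0.72 for BCL2L15, all low in counts. The mitochondrial members BCL2L13, BNIP3 and BNIP3L, which take part in mitophagy, had well-measured values of −0.08 ± 0.07, −0.01 ± 0.07 and −0.12 ± 0.08. BCL2A1, BCL2L10 and BCL2L14 had between 0 and 5 counts in any library and were not tested.

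Downstream of mitochondria, 4 of 19 tested genes rose and 1 fell, with a median log2 fold change of 0.08. Over all tested genes 10.7% were called higher and 13% lower. The risers were CYCS (cytochrome c, 0.14 ± 0.03), BIRC5 (survivin, 0.30 ± 0.04), AIFM1 (an apoptosis-inducing flavoprotein of the intermembrane space, 0.20 ± 0.05) and VDAC2 (an outer membrane channel to which BAK1 binds, 0.21 ± 0.04). BIRC6, a giant ubiquitin ligase that restrains caspases, fell by 0.79 ± 0.15, from 15.4 and 13.7 CPM in WT to 8.59 and 8.29 CPM in T4A. The apoptosome genes APAF1 (−0.28 ± 0.14, adjusted p = 0.161) and CASP9 (0.08 ± 0.15) did not pass. CYCS and AIFM1 lost their calls with library totals and VDAC2 lost its call with the length correction. With that correction 4 genes of the list were still called higher, so another gene gained a call.

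Among 11 tested genes listed with the death receptor pathway, which reaches the mitochondria through BID, 1 rose and 1 fell (median log2 fold change 0.01). Over all tested genes 10.7% were called higher and 13% lower, shares that also stand beside the next list. The called genes act together in a complex apart from the death receptors, and the other 9 tested genes did not pass. PIDD1, a death domain adaptor, rose by 0.31 ± 0.06, and CASP2, the caspase that PIDD1 activates and that can cut BID, fell by 0.52 ± 0.12. CASP2 was not called with the length correction. Of 7 genes of MCL1 protein turnover none was called higher in edgeR, DESeq2 or limma-voom (0 also at an unadjusted p under 0.05), and 3 fell, with a median of −0.39. They encode ubiquitin ligase components: HUWE1 (fell by 0.68 ± 0.05, adjusted p = 7.9e-09), BTRC (0.51 ± 0.16, adjusted p = 0.0284) and CUL5 (0.39 ± 0.13, adjusted p = 0.0324). The merged exons of HUWE1 cover 17754 bases, and its longest transcript has 14796. The 7 genes have between 4628 and 17754 exonic bases, in length groups where 9.61% to 32.1% of all genes were called lower. BTRC and CUL5 lost their calls with upper quartile scaling, DESeq2 and the length correction, and HUWE1 was called under each of these. In this list 1 gene was called lower without T4A replicate 2 or without WT replicate 1, 2 without WT replicate 2 and 4 without T4A replicate 1.

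Of 9 transcription factors known to act on family members, 3 rose and 1 fell (median 0.11). The shares over all tested genes were 10.7% higher and 13% lower. The risers were those of the integrated stress response, which acts on BBC3, PMAIP1 and BCL2L11: ATF3 at 28.6 and 32.4 CPM in T4A against 15.7 and 15.0 CPM in WT (log2 fold change 0.99 ± 0.11, adjusted p = 1.17e-06), ATF4 (0.37 ± 0.05, adjusted p = 3.32e-05) and DDIT3, the gene of CHOP (1.02 ± 0.30, adjusted p = 0.0159). DDIT3 was low, at 4.98 and 3.67 against 2.27 and 1.99 CPM, and lost its call without T4A replicate 1 or WT replicate 2. Other annotated genes share 39.6% of the exonic bases of DDIT3. FOXO3, which drives BCL2L11 and BBC3 when survival signals are low, fell by 0.63 ± 0.17 (adjusted p = 0.00914), from 11.2 and 11.0 to 6.70 and 7.66 CPM, and lost its call with the length correction and without either WT replicate.

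MCL1 was set beside 28 other genes with short-lived mRNAs, of which 27 were tested. In this list 10 rose, 2 fell and the median log2 fold change was 0.48, whereas MCL1 fell. Over all tested genes 10.7% were called higher and 13% lower. Every tested gene of the list but SGK1 (9962 bases) has fewer exonic bases than MCL1 (6222 bases). With the length correction MCL1 was at −0.17 and not called, and the part of length in this contrast was not tested. The list was drawn up with earlier results of these data known and its direction is no independent evidence. The genes with the smallest p were ATF3 (values above), JUN (0.50 ± 0.07, adjusted p = 1.08e-05), DUSP1, a MAP kinase phosphatase (1.09 ± 0.23, adjusted p = 0.0013), IER2 (0.39 ± 0.09, adjusted p = 0.00218), PPP1R15A, the GADD34 gene of the stress response (0.64 ± 0.14, adjusted p = 0.00223), and, in the other direction, KLF6 (−0.60 ± 0.15, adjusted p = 0.00556). Most are immediate early genes. Other annotated genes share 52.2% of the exonic bases of IER2, and their part in its count was not tested. Fewer genes of this list were called higher without WT replicate 2, where fewer were called over all tested genes as well.

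As a check of the cell line, all 7 genes listed as HEK293 markers were detected, with summed levels of 325.4 and 312.5 CPM in T4A and 277.8 and 279.6 CPM in WT. Most of each sum was VIM alone (T4A libraries 276.4 and 261.2 CPM, WT libraries 234.3 and 233.0 CPM). Some of the listed markers were low. PAX2 ranged from 2.42 to 4.44 CPM over the libraries, and EYA1 never exceeded 38 counts and fell to 2 in T4A replicate 2. KRT8 (0.56 ± 0.11) and VIM (0.20 ± 0.05) were higher in T4A and the other 5 did not pass. Over all tested genes 10.7% were called higher and 13% lower. Other annotated genes share 24.6% of the exonic bases of VIM and 7.63% of those of KRT8. Of 12 markers of blood, endothelium, fibroblasts and liver, 11 were found by symbol, 5 passed the filter and none was called in either direction by edgeR, DESeq2 or limma-voom (0 at an unadjusted p under 0.05). Their summed level was 36.4 and 39.4 CPM in T4A and 38.8 and 42.2 CPM in WT, of which all but 7.87 to 10.2 CPM was COL1A1, and HBB was at 0 in all libraries. COL1A1, at 27.5 to 33.1 CPM, lay above every HEK293 marker but VIM. COL3A1, at 3.72 to 4.76 CPM, was near the level of PAX2. The contrast between the sums thus rests on VIM and does not settle the identity of the line. POLR2A, the gene of RPB1, was at 5378 and 5477 CPM in T4A and at 3772 and 2764 CPM in WT (log2 fold change 0.73 ± 0.08, adjusted p = 7.23e-07). Construct and endogenous transcripts are counted together there, so it does not check the labels, and the part of construct level in the changes of the members was not tested.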

How the data were processed

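Poly(A) RNA-seq was available for 2 T4A and 2 WT libraries. The deposited values are raw counts of fragments per gene, made by the authors without normalization or pooling. The submitters' processing notes name featureCounts 2.0.1, HISAT2 2.2.1, Trimmomatic 0.38 and the build hg38. Reads were counted without strand, and how reads with several positions were treated was not stated in what was used here. Symbols, exonic lengths, overlaps and 3′UTRs came from GENCODE release 44 (60877 of 62700 identifiers found). Its transcripts were lifted to another build, and no coordinate of that build is printed. Coordinates and promoter windows came from RefSeq on GRCh38.p14, with 9 of 10 members in the promoter table. MCL1 had no entry there. Motifs in windows were searched on both strands, those in 3′UTRs on the sense strand.

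Counts were filtered with filterByExpr (18139 genes kept) and fitted in edgeR 4.0.16 (R 4.3.3) with TMM, glmQLFit and glmQLFTest, and p-values were adjusted by Benjamini-Hochberg over all genes tested. Each SE was obtained from the log2 fold change and its F statistic (quotient of the change and the root of F). Levels are CPM with TMM-scaled library sizes and are shares of a library. Total counts ran from 19257217 to 33063535, the common biological coefficient of variation was 0.114 and the prior degrees of freedom were 17.0. The replicates of a group differed by more than sampling noise (chi-square over degrees of freedom 5.66 for WT and 4.56 for T4A), and each was counted as a library of its own. The fits were tested on simulated counts. Alternatives were other scalings and filters, DESeq2 1.42.0, limma-voom (limma 3.58.1), a replicate block, a test against a fold of 1.2, an offset for exonic length and each library left out. The members and lists were chosen with earlier results of these data known. Named are all 10 members, every other BCL2 family gene tested, POLR2A, up to 6 called genes of each other list with the smallest p, and a few uncalled or overlapping genes chosen after their values were seen. The reference tables used here hold no proteins, so protein sequences were not used. Some values of the listed genes and motifs are not reported here.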

Additional observations from a re-analysis of the deposited data

How the results depend on the processing

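BCL2L11 kept its direction and call under all 14 alternatives, and BAX, BID and BAD under 13 of 14, losing the call only in the test against a fold of 1.2 (log2 fold changes 0.36, 0.34 and 0.45). In that test 0 members were called higher (3 at an unadjusted p under 0.05, and 3 called by DESeq2 and by limma-voom) and 1 was called lower, while 4 of the other listed genes were called higher and 2 lower, against 18 and 8. MCL1 lost its call there (−0.28), with upper quartile scaling (−0.19), in DESeq2 (−0.26) and with the length offset (−0.17), so that 1 member was called lower in each of these, and the other listed genes called lower were 5, 5 and 4 in the last 3. BCL2 changed sign with upper quartile scaling (0.063), the length offset (0.26) and the replicate block (0.0093), and PMAIP1 with library totals (−0.044) and the length offset (−0.10). With 1 library left out, the log2 fold changes ran from −0.34 to −0.20 for MCL1, from −0.31 to 0.37 for BCL2, from 0.35 to 1.11 for BCL2L1, from −0.055 to 0.61 for BAK1 and from −0.043 to 0.12 for PMAIP1. In the same settings 3 to 5 members were called higher (5 without WT replicate 2) and 1 to 2 lower (1 without T4A replicate 1 or WT replicate 2), and 13 to 21 of the other listed genes higher and 5 to 9 lower (5 without WT replicate 1 or 2). A lone library was then assumed to vary like the other group. Calls over all tested genes moved in these settings too, so shifts in the counts of members or of any list are not results about those genes alone. The causes were not tested. No shared shift of libraries with the same replicate number was seen (correlation of their deviations −0.0038). That value cannot show whether such libraries were prepared together, which the labels do not state. The replicate block called 2012 genes higher and 2432 lower, against 1935 and 2351, and changed no member's call. The test against a fold of 1.2 called 596 and 980 genes, library totals 1352 and 2987, upper quartile scaling 2690 and 1718, and the length offset 1951 and 1378. Depth limits BCL2 and BCL2L1, whose libraries held between 32 and 118 counts.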

Other observations

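Some genes of the pathway were at or near 0 although they are widely expressed. DIABLO, which encodes the SMAC protein released from mitochondria together with cytochrome c, had 4 counts in T4A replicate 2 and 0 in every other library, while CYCS had between 15570 and 25321 counts. Other annotated genes share 2247 of the 6960 exonic bases of DIABLO. The death receptor TNFRSF10A was at 0 in all 4 libraries, with 490 of 2927 exonic bases shared, whereas the related TNFRSF10B had between 555 and 1074 counts. IER3 had 1 count in 1 WT library and 0 in the others, with 525 of 1350 exonic bases shared. The part of the overlaps in these counts was not tested.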
